A study of Homo sapiens with 12 samples.

Results

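The comparison described here is between mRNA after 360 min and mRNA after 60 min of GSK-A1, in HEK293T, a cell line derived from human embryonic kidney. It rests on the 2 mRNA libraries titled 360 min and the 2 titled 60 min, which are 4 of the 12 libraries of the series and were chosen by these titles alone. All cells carried the genotype label WT, and all 12 libraries, those of 0 min included, carried the treatment label GSK-A1. The remaining libraries are 2 of mRNA at 0 min, which give the starting level here, and 6 of ribosome-protected fragments (RPF) at the same 3 times, which serve as a second readout. The mRNA libraries are labelled as polyA RNA, and their preparation is not described in the labels. The labels do not say that the replicates of a time came from separate cultures, so the p-values measure the spread between these libraries, which may be technical.

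GSK-A1 inhibits PI4KA, the lipid kinase that makes phosphatidylinositol 4-phosphate at the plasma membrane. This lipid is a precursor of other phosphoinositides, and its gradient between the plasma membrane and the endoplasmic reticulum is used to carry phosphatidylserine outward. The series title links these lipids to phosphatidic acid and to RhoB, a small GTPase of membranes. An mRNA level is set by transcription and decay together, and a ribosome footprint level by the mRNA level and by how many ribosomes it carries.

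The counts are per Ensembl transcript, and 0 of the 18338 identifiers matched a gene name in the tables used here. No gene is therefore named, and gene lists by function, markers of HEK293T or of other cell types, and the level of PI4KA were not analysed here. The classes described are those that the counts themselves define: starting mRNA level, starting footprint level, the ratio of footprints to mRNA at 0 min, detection in the RPF libraries, and abundance at 360 min.

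Library totals were 853782 (replicate 1) and 1002695 (replicate 2) for mRNA at 60 min, and 429026 and 593334 at 360 min. Depth therefore moved with time, and its part in the results was not tested. The spread also moved with time: the log2 difference between replicates had a standard deviation of 0.745 over transcripts at 60 min and of 1.02 at 360 min. Across the transcripts tested, Pearson's r was 0.867 between the 60 min replicates, 0.806 between the 360 min replicates and 0.766 to 0.853 between libraries of different times, so the 360 min replicates were no closer to each other than to some 60 min libraries. Among the RPF libraries, replicate 2 of 360 min stood apart. The quintile of transcripts with the fewest footprints per mRNA at 0 min took 18.7% of its counts, against 8.46% to 9.62% in the other 5 RPF libraries.

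Counts were gathered in fewer transcripts at 360 min. The 100 most abundant transcripts of each library held 32.1% and 31.7% of counts at 60 min and 39.4% and 35.5% at 360 min. The number of transcripts that together held 50% of counts was 438 and 448 at 60 min and 240 and 354 at 360 min. Both 360 min libraries lay beyond both 60 min libraries in each of these measures. An exact two-sided permutation test of 2 libraries against 2 cannot give a p below 0.333, so no p is given for such shares. With every mRNA library brought to 429026 counts, 15104 and 14170 transcripts would be listed at 60 min and 14233 and 13779 at 360 min, and these ranges overlap. Of the 17535 transcripts listed in at least 1 of the 4 libraries, 672 were listed in both 60 min libraries and neither 360 min library, and 62 the other way round. These were low: their highest count in any library was 29 and 11, and their median summed count was 4 and 3.

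Among 9693 transcripts tested, 0 passed an adjusted p of 0.05 in either direction (0% of those tested; edgeR's quasi-likelihood test with Benjamini-Hochberg adjustment, smallest adjusted p 0.293). At an unadjusted p under 0.05 there were 631 transcripts higher at 360 min (6.51%) and 367 lower (3.79%), and these are called the higher and the lower transcripts below. DESeq2's Wald test, which gave an adjusted p to 3680 transcripts after its own filter on low means, put 61 of them past 0.05 (1.66%), all higher at 360 min. The middle of the 631 higher transcripts had a log2 difference of 1.45 (quartiles 1.19 and 1.85), and that of the 367 lower ones -1.52 (quartiles -1.95 and -1.26). The median standard error (SE) of a log2 difference was 0.53 over all transcripts tested. In simulated libraries with the same depth and spread, a log2 change of 1 was recovered at an adjusted p of 0.05 in 0% of changed transcripts, one of 2 in 4% and one of 3 in 73%.

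The balance of higher and lower transcripts depended on the scaling. With scaling by library totals alone there were 360 higher and 670 lower transcripts, and the median log2 difference of all transcripts was -0.28, against -0.04 with TMM scaling (trimmed mean of M-values), to which all other differences given here are relative. The balance also turned on leaving out 360 min replicate 2, with 441 higher and 472 lower. Without 60 min replicate 1 the counts were 434 higher and 345 lower, without 60 min replicate 2 they were 291 and 222, and without 360 min replicate 1 they were 686 and 576.

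Without a model, but on TMM-scaled counts, both 360 min libraries were above both 60 min libraries for 2006 transcripts (20.7%). They were below both for 1895 (19.6%). With library totals alone these counts were 1279 above and 2819 below, so this balance also depended on the scaling. Set beside the 0 min libraries, 523 of the 631 higher transcripts were higher in both 360 min libraries than in all 4 earlier ones, as were 1353 of all transcripts tested. Of the 367 lower transcripts, 337 were lower at 360 min than in all 4 earlier libraries, as were 1138 of all tested. Some lay on the other side of the 0 min level at 60 min: 227 of the higher transcripts were below both 0 min libraries then (1189 of all tested), and 118 of the lower ones were above both (1303 of all tested). The higher and lower transcripts were picked on these same 60 and 360 min libraries. That choice favours larger shares than among all tested, so these counts are a description and not a sign of a time course.

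The class with the most higher transcripts was that with few footprints per mRNA at the start. Each transcript was placed by its log2 RPF level minus its log2 mRNA level at 0 min, which uses none of the 4 libraries compared. In the lowest quintile (1939 transcripts, log2 ratio up to -0.93) 287 were higher at 360 min and 29 lower, or 14.8% and 1.496%. In the other 4 quintiles 3.92% to 4.85% were higher and 3.51% to 5.37% lower. With library totals alone the lowest quintile had 217 higher and 72 lower transcripts. On leaving out 1 library it had 233 higher and 15 lower without 60 min replicate 1, 157 and 69 without 60 min replicate 2, 211 and 201 without 360 min replicate 1, and 263 and 16 without 360 min replicate 2. The excess of higher over lower transcripts in this class was thus nearly absent without 360 min replicate 1. The lowest quintile held 45.5% of all higher transcripts and 7.90% of the lower ones. Its share of the higher transcripts was 32.2% to 62.6% on leaving out 1 library. Its share of the lower ones was 4.52% without 60 min replicate 1 and 3.52% without 360 min replicate 2, but 35.2% without 60 min replicate 2 and 36.4% without 360 min replicate 1, so the low share of lower transcripts did not hold without either of those libraries. Within it the lowest decile (970 transcripts, log2 ratio up to -1.48) had 212 higher and 14 lower (21.9% and 1.44%), and the next decile 75 and 15 (7.74% and 1.55%). From the third decile upward 3.51% to 5.67% were higher. Both 360 min libraries were above both 60 min libraries for 27.1% of the lowest quintile and for 17.5% of the highest quintile, and below both for 9.23% and 25.1%.

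**Figure D1:**
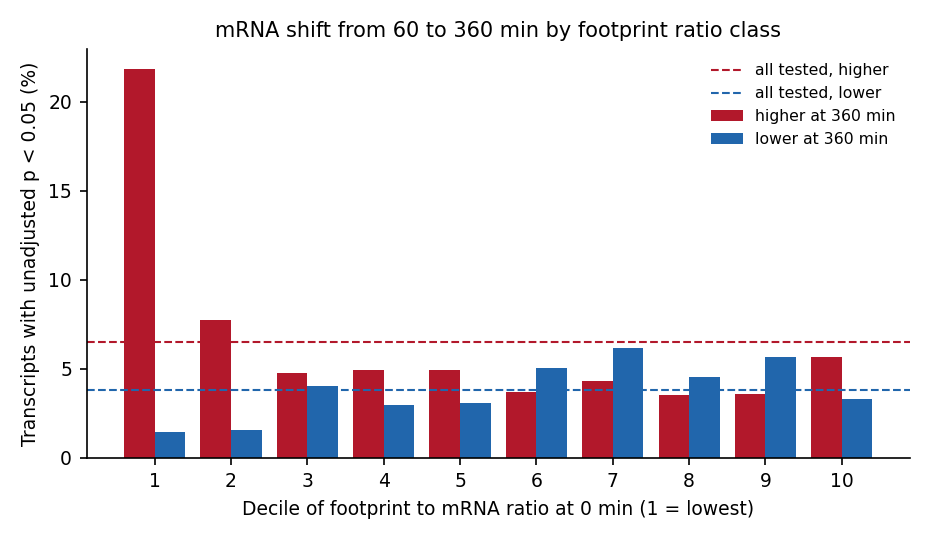
Percent of transcripts higher and lower at 360 min than at 60 min at an unadjusted p under 0.05, by decile of the 0 min ratio of footprints to mRNA, with dashed lines at 6.51% and 3.79% for all transcripts tested. The lowest decile had 21.9% higher and 1.44% lower, and the next decile 7.74% higher.

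The difference was in a minority of the class. The median log2 difference of the lowest quintile was 0.03, against -0.04 over all transcripts tested and -0.08 in the highest quintile, while its upper quartile was 0.76 against 0.38 in the highest quintile. In the lowest decile the median was 0.20, and in the next decile -0.08. The median of the lowest quintile relative to all transcripts changed direction with the library left out: it was 0.47 without 60 min replicate 1 and -0.22 without 360 min replicate 1. Of the 121 higher transcripts with a log2 difference above 2, 94 were in the lowest quintile, which held 45.5% of all higher transcripts. Of the 86 lower ones below -2, 10 were there, beside 7.90% of all lower transcripts. These counts are given for the fit with all libraries only.

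Replicates differed most in the same class. The median size of the log2 difference between replicates was 0.716 at 60 min and 0.817 at 360 min in the lowest quintile, and 0.411 and 0.591 in the highest quintile. The class as a whole was higher in replicate 1 than in replicate 2 at both times, by a median log2 of 0.61 at 60 min and 0.57 at 360 min. Its share of all mRNA counts was 34.0% and 40.5% at 0 min, 37.6% and 25.9% at 60 min, and 45.3% and 36.8% at 360 min. The 60 and 360 min shares overlap. For the lowest decile they did not: the share was 26.2% and 17.1% at 60 min and 35.7% and 29.4% at 360 min. The part of this replicate difference in the higher transcripts was not tested.

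**Figure D2:**
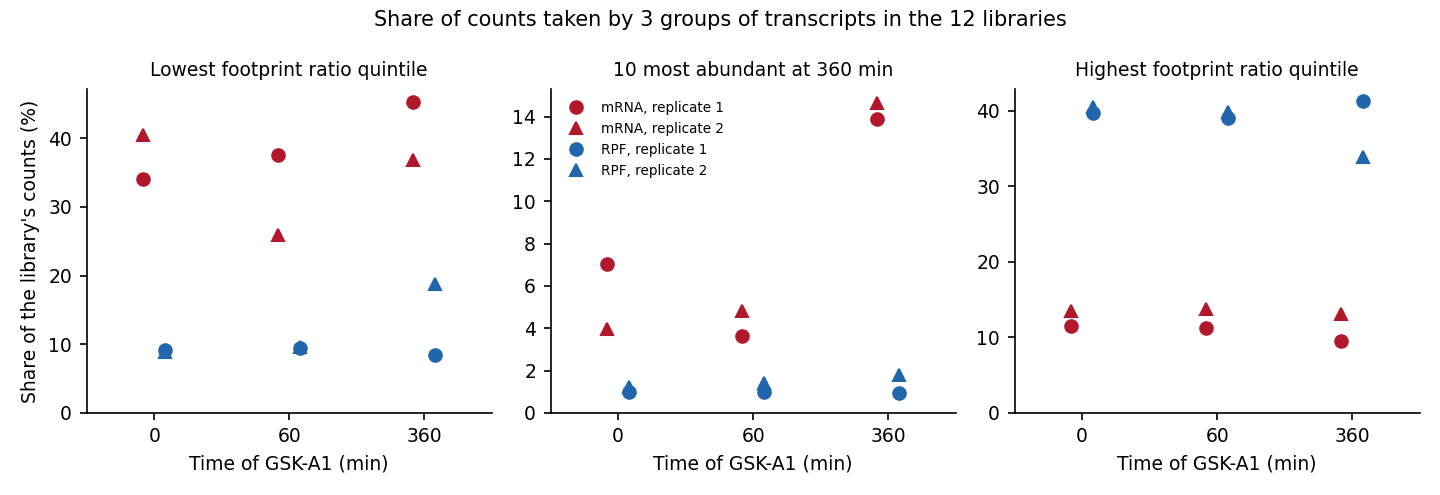
Percent of each library's counts taken by the lowest footprint ratio quintile, the 10 most abundant mRNAs at 360 min and the highest ratio quintile, with 1 point per library of mRNA and RPF at 0, 60 and 360 min. The transcripts with the lowest footprint ratio took 45.3% and 36.8% of mRNA counts at 360 min and 37.6% and 25.9% at 60 min, and RPF 360 min replicate 2 stands apart at 18.7%.

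Starting mRNA level separated the transcripts less. From the lowest to the highest quintile of the mRNA level at 0 min, 4.89%, 3.78%, 6.29%, 8.05% and 9.55% were higher at 360 min, and 3.71%, 3.88%, 4.84%, 4.23% and 2.27% were lower. The median log2 difference of these quintiles ran from -0.11 to 0.02. Within each of them, the share higher was larger in the lowest footprint ratio quintile than in the others: 12.9% against 3.32%, 8.26% against 2.82%, 13.03% against 4.90%, 18.3% against 5.49% and 18.4% against 5.90%. This order held in all 5 levels on leaving out each of the 4 libraries in turn. With at least 10 counts in each mRNA library it held in 4 of the 5, and the lowest level had 0% against 26.3%. In the highest level the median log2 difference was -0.080 in the lowest ratio quintile and -0.003 in the others. In every other level the lowest ratio quintile had the higher median. The share lower was 0.532% to 2.42% against 2.98% to 5.34%, but its order turned in all 5 levels without 60 min replicate 2 and in all 5 without 360 min replicate 1. These differences between classes were not tested. By starting footprint level, 10.2% of the lowest quintile were higher, and 5.16% to 5.98% of the other quintiles.

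The transcripts whose footprints were too few to be tested followed the same order. There were 1061 tested in mRNA and not in RPF, and 137 of these were higher (12.9%) and 15 lower (1.41%), with a median log2 difference of 0.15. Of the 8632 tested in both assays 5.72% were higher and 4.08% lower, with a median of -0.06. This class and the lowest footprint ratio hold many transcripts in common by construction.

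The mRNAs most abundant at 360 min took a larger share of counts there than at 60 min. The 10 most abundant transcripts at 360 min held 3.64% and 4.80% of mRNA counts at 60 min and 13.9% and 14.6% at 360 min, against 7.05% and 3.95% at 0 min. They were chosen on their 360 min level, so their height there is part of the choice and the values are a description. Of these 10, 9 were among the higher transcripts, 8 of them in the lowest quintile of the footprint ratio, and 3 of the 10 were also among the 10 most abundant at 60 min. The 9 ran from 1748 to 7055 CPM (counts scaled to library size) at 60 min and from 6328 to 33966 CPM at 360 min. For each of them the lower 360 min library was 2.25 to 5.46 times the higher 60 min library, while the 60 min replicates differed by 1.03 to 1.53 times and the 360 min replicates by 1.05 to 2.29 times. Their log2 differences were 1.64 to 2.696. The other transcripts of the lowest quintile of the footprint ratio took 34.5% and 21.9% of counts at 60 min and 33.0% and 24.1% at 360 min. These are shares of all counts, with those of the 10 transcripts still in the total. A larger share of the 10 at 360 min thus lowers them, so they do not show whether the rest of the class shifted.

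At 0 min the same 9 lay between 679 and 15725 CPM, and their 0 min replicates differed by 1.21 to 5.84 times. Both 360 min libraries were above both 0 min libraries for 8 of them. The most abundant transcript at 360 min was at 4185 and 4308 CPM at 60 min and at 23509 and 27427 CPM at 360 min, with 7388 and 3641 CPM at 0 min. All its 360 min values are above all its earlier ones. The next was at 5036 and 6578 CPM at 60 min and at 33966 and 14818 CPM at 360 min, but at 15725 and 3759 CPM at 0 min, so its 360 min range overlaps its 0 min range. Rank 10 did not differ beyond its spread, with 6159 and 8903 CPM at 60 min and 8235 and 6029 CPM at 360 min.

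**Figure D3:**
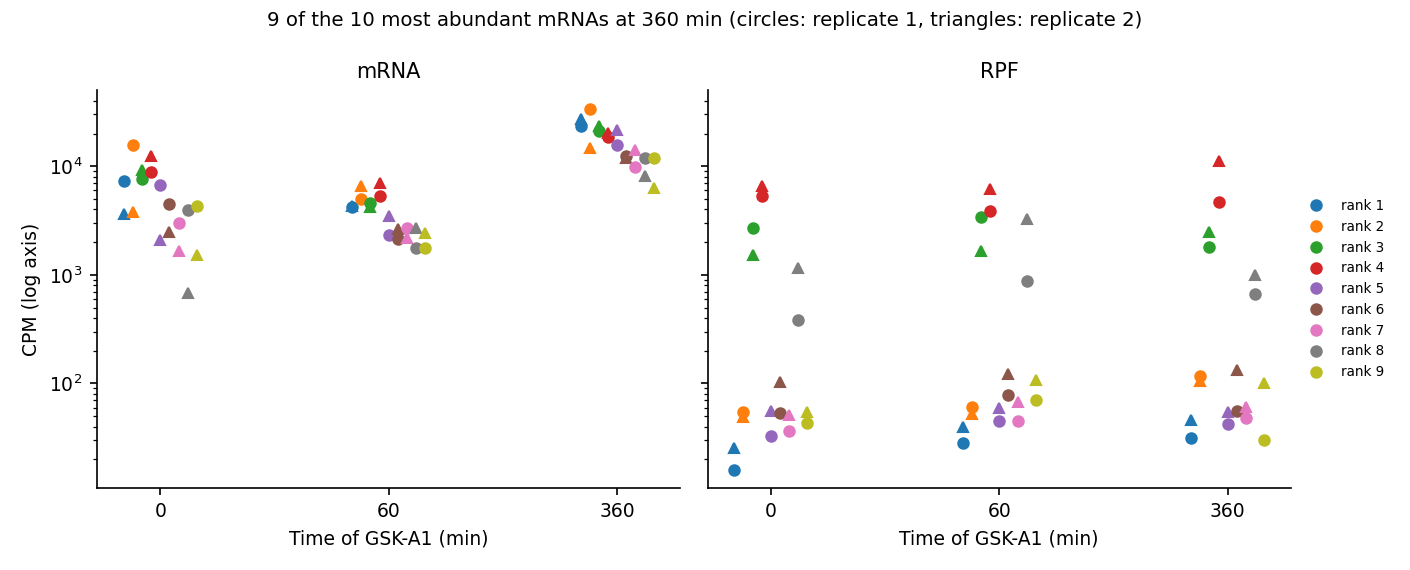
mRNA and RPF levels in CPM (log axis) by time of GSK-A1 (min), for 9 of the 10 transcripts most abundant in mRNA at 360 min (ranks 1 to 9), with circles for replicate 1 and triangles for replicate 2. For all 9 both 360 min mRNA libraries are above both 60 min ones, and for 1 of these 9 the same holds in RPF. Over all transcripts tested, that order held in mRNA for 20.7%, and the share in RPF is not given here.

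In each of the 9 higher ones the RPF log2 difference was lower than the mRNA one, which their choice on the 360 min mRNA level favoured. For the 9 higher ones the RPF log2 difference ran from -1.27 to 1.04, and in 1 of the 9 both 360 min RPF libraries were above both 60 min ones. Over all transcripts tested, that order held in mRNA for 20.7%. The share in RPF is not given here, so the 1 of 9 is a description only. For 6 of the 9 the log2 ratio of footprints to mRNA at 0 min was -7.83 to -5.44, with 16.04 to 134 CPM in RPF beside 1528 to 33966 CPM in mRNA over the 3 times. The difference between the assays (the RPF change minus the mRNA change) was -3.44 to -0.90 for the 9, on the log2 scale, with SEs of 0.90 to 1.27. For rank 2 (-1.03, SE 1.15) and rank 4 (-0.90, SE 1.11) it was smaller than its SE. No test is given, since the transcripts were chosen on their mRNA level. Of the 50 transcripts most abundant at 0 min, a choice that uses none of the libraries compared, 9 were higher (18%) and 0 lower, against 6.51% and 3.79% of all transcripts tested and 9.55% and 2.27% of the highest quintile of the 0 min mRNA level, with a median log2 difference of -0.35. Of these 50, 30 were in the lowest quintile of the ratio, and 7 of those 30 were higher, against 14.8% of that quintile. Ranks 1 to 6 and 9 at 360 min are also among these 50, and all but rank 4 of them are in the lowest quintile. Most of the higher transcripts counted here are therefore the same ones as above, not further cases.

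For most of the higher and lower mRNAs the footprint difference had the same sign as the mRNA difference. Of the 494 higher mRNAs tested in both assays, 385 (77.9%) had a log2 RPF difference above 0, with a median of 0.36, against 54.0% and a median of 0.05 for all 8632. Of the 352 lower mRNAs, 262 (74.4%) were below 0 in RPF, with a median of -0.33, against 46.0% of all 8632. Without mRNA 60 min replicate 2, the lower mRNAs were below 0 in RPF in 47.4%, close to that 46.0%. In RPF 422 of the 8632 transcripts were higher at an unadjusted p under 0.05 (4.89%) and 234 lower (2.71%). Among the higher mRNAs 55 were higher in RPF (11.1%) and 4 lower, and among the lower mRNAs 34 were lower in RPF (9.66%) and 3 higher.

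Since RPF 360 min replicate 2 stood apart in the low ratio class, the 2 classes are given with and without it. Outside the lowest quintile of the ratio, 267 of 329 higher mRNAs (81.2%) were above 0 in RPF with all libraries, against 50.9% of all transcripts there, and without that library 73.9% against 50.0%. Without RPF 360 min replicate 1 instead, they were 63.8% against 42.0%. Within the lowest quintile, 118 of 165 higher mRNAs (71.5%) were above 0 with all libraries, against 73.0% of all 1216 transcripts of that class, and 47.9% against 41.9% without RPF 360 min replicate 2. Within the low ratio class the share of the higher mRNAs thus lay near that of the class itself, and its side of 50% turned with that library. Over both classes together the higher mRNAs were above 0 in 65.2% without that library, against 48.9% of all transcripts. The lower mRNAs were below 0 in 73.6% without it, against 51.1% of all transcripts, and in 76.4% without RPF 360 min replicate 1, against 52.97%.

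**Figure D4:**
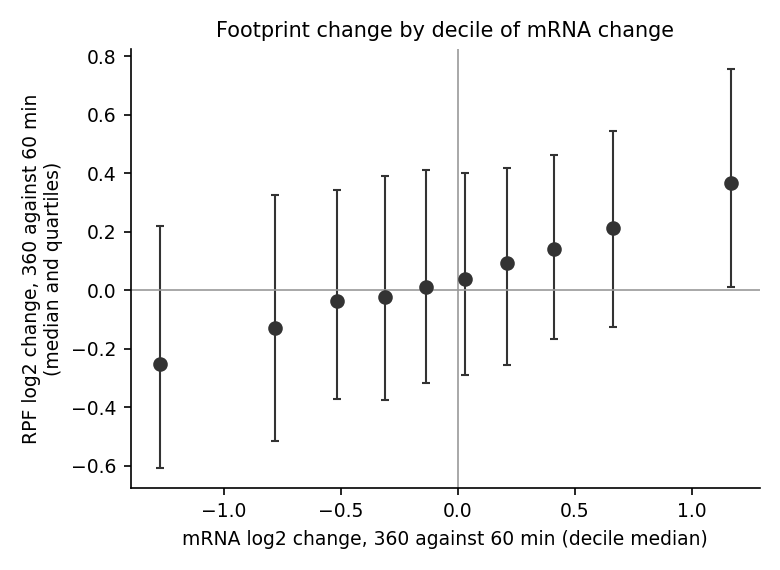
Median log2 RPF difference (360 min minus 60 min) with quartiles, by decile of the log2 mRNA difference, over 8632 transcripts tested in both assays. The RPF median goes from -0.25 in the lowest decile to 0.37 in the highest, higher at each step, over mRNA medians from -1.28 to 1.17.

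Across the 8632 transcripts, which are not independent replicates, the mRNA and RPF differences had Pearson's r 0.232 and Spearman's rho 0.246; r was 0.154 to 0.225 on leaving out each RPF library of the 2 times. By deciles of the mRNA difference, the median mRNA difference went from -1.28 to 1.17 and the median RPF difference from -0.25 to 0.37.

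The transcripts with the smallest p values are given by identifier. They were chosen after their values were seen, as the transcripts with the smallest unadjusted p at a mean of at least 20 CPM and with no overlap between the times. ENST00000433844 was at 12.7 and 12.95 CPM in the 60 min libraries (11 and 14 counts) and at 104 and 160 CPM at 360 min (37 and 90 counts), after 27.0 and 20.4 CPM at 0 min. Its level was lower at 60 min than at 0 min in both libraries, and higher at 360 min than in all earlier ones. In replicate 2 it had 14 counts at both 0 and 60 min, so the lower CPM there comes from the scaled totals. The means were 12.8 ± 0.175 (SD, n = 2) at 60 min and 132 ± 39.6 (SD, n = 2) at 360 min. The log2 difference was 3.35 (SE 0.44, unadjusted p 3.02e-05, adjusted p 0.293 in edgeR's quasi-likelihood test). Its footprints were at 38.2 and 24.7 CPM at 60 min and at 73.6 and 83.0 CPM at 360 min, a log2 difference of 1.37 (SE 0.41, unadjusted p 0.00373, adjusted p 0.460 in edgeR's test). Both readouts were higher at 360 min without overlap between the times.

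ENST00000245796, in the lowest quintile of the footprint ratio, was at 90.1 and 78.6 CPM at 60 min and at 362 and 464 CPM at 360 min, after 122 and 105 CPM at 0 min. Here too the 60 min libraries were below and the 360 min libraries above both 0 min libraries. The log2 difference was 2.29 (SE 0.41, unadjusted p 0.000309, adjusted p 0.327 in edgeR's quasi-likelihood test). In RPF it was at 28.4 and 20.6 CPM at 60 min and at 36.8 and 45.8 CPM at 360 min, which overlaps 36.8 and 61.3 CPM at 0 min, a log2 difference of 0.80 (unadjusted p 0.095 in edgeR's test).

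Of the lower transcripts, ENST00000355765 was at 48.5 and 37.9 CPM at 60 min (42 and 41 counts) and at 8.42 and 5.33 CPM at 360 min (3 and 3 counts), after 29.6 and 23.3 CPM at 0 min. The log2 difference was -2.67 (SE 0.56, unadjusted p 0.000924, adjusted p 0.327 in edgeR's quasi-likelihood test). Its footprints were at 27.3 and 17.8 CPM at 60 min and at 25.9 and 11.9 CPM at 360 min, and these ranges overlap. ENST00000698141 was at 49.7 and 46.3 CPM at 60 min (43 and 50 counts) and at 11.2 and 8.88 CPM at 360 min (4 and 5 counts), after 28.3 and 24.8 CPM at 0 min. Its log2 difference was -2.26 (SE 0.49, unadjusted p 0.00119, adjusted p 0.327 in edgeR's quasi-likelihood test), and its footprints were at 12.01 and 24.7 CPM at 60 min and 5.45 and 16.9 CPM at 360 min, which overlap. Both lower transcripts were above both 0 min libraries at 60 min and below them at 360 min, and both rest on 3 to 5 counts per library at 360 min. For all 4 identifiers, the choice of a large difference without overlap favoured 60 and 360 min levels on opposite sides of 0 min. Their order over the 3 times is therefore a description and not a sign of a time course.

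**Figure D5:**
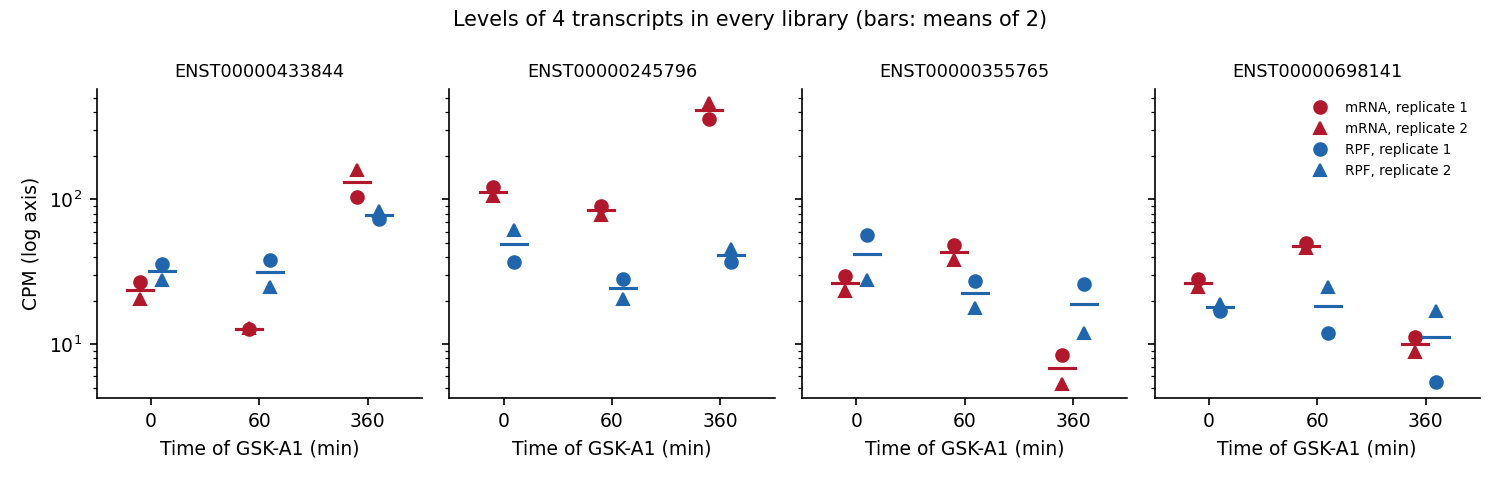
mRNA and RPF levels in CPM (log axis) of the 4 identifiers by time, with circles for replicate 1, triangles for replicate 2 and bars for the means. In mRNA the 360 min libraries do not overlap the 60 min libraries for any of the 4, and in RPF the same holds for the 2 higher ones.

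The same rule taken to 12 transcripts each way gave 12 higher ones with log2 differences of 2.07 to 3.35, of which 9 were in the lowest quintile of the footprint ratio. That quintile held 45.5% of all higher transcripts and 7.90% of the lower ones. Their 60 min means were 12.8 to 228 CPM and their 360 min means 89.8 to 1790 CPM, and 6 of the 12 were tested in RPF, 5 with a higher and 1 with a lower RPF level. The 12 lower ones had log2 differences of -2.67 to -1.59, with 60 min means of 37.0 to 193 CPM and 360 min means of 6.87 to 64.4 CPM, and 1 was in the lowest quintile. All 12 were tested in RPF, 10 with a lower level, at a median of -0.23. Of all 8632 transcripts tested in both assays, 54.0% were above 0 in RPF and 46.0% below. The sets are too small to set against these shares. In all 12 of each direction both 360 min libraries lay beyond all 4 earlier libraries. For the 60 min libraries this was part of the rule, and for the 0 min ones the choice of large differences favoured it. Of all 9693 transcripts tested, 1353 lay above and 1138 below all earlier libraries. In whole cultures a lower level in every cell and fewer cells expressing a transcript cannot be told apart.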

How the data were processed

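Each library has 1 deposited table of raw counts by Ensembl transcript, per the file headers, and the authors list only transcripts with at least 1 count. A missing transcript was set to 0. The submitters' processing notes name cutadapt 2.8, Bowtie 1.2.3 and STAR 2.7.10a, with no role. The counting program, genome build, annotation, counted region and strand are not given in the sources used here, so near-identical and overlapping transcripts are uncertain. 0 columns belonged to samples outside the series.

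The test was edgeR 4.0.16 in R 4.3.3 (filterByExpr, TMM, quasi-likelihood test, Benjamini-Hochberg adjustment, threshold 0.05). All 6 mRNA libraries were fitted with time as the only factor, and the contrast was 360 min minus 60 min; RPF was fitted likewise. The SE is the size of the log2 difference divided by the square root of F. CPM used TMM-scaled totals. The footprint ratio is log2 RPF minus log2 mRNA at 0 min (prior count 2). The fit was tested on simulated data with 200 changed transcripts.

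The comparison and the lists were chosen with earlier results of these data known, and the classes by footprint ratio, footprint level and abundance after the data were seen. The naming rule covered 3 genes given by symbol, members of gene lists, and the 12 smallest p each way among transcripts with a symbol, at a mean of at least 20 CPM and without overlap. No identifier had a symbol, so it named none. Its last part was then applied to identifiers, and 2 each way are printed. Replicates differed beyond counting noise (chi-square per degree of freedom 9.64 at 60 min and 6.61 at 360 min), and each was counted as its own sample. Such a spread does not show that they came from separate cultures. Alternatives were other scalings, DESeq2 1.42.0, other filters, the 4 compared libraries alone, robust estimation, a replicate block and leaving out each replicate. Others were added after the data were seen: the ratio from 1 replicate, a 4-library replicate block, and leaving out RPF libraries.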

Additional observations from a re-analysis of the deposited data

How the results depend on the processing

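With library totals alone there were 360 higher and 670 lower transcripts, and 60.3% of the higher ones were in the lowest quintile of the footprint ratio. DESeq2 gave 61 transcripts past an adjusted p of 0.05, 171 lower at an unadjusted p, 57.6% in the lowest quintile, and 79.5% of lower mRNAs with lower footprints. With no filter the values were 113 past an adjusted p, 698 lower and 67.4% with lower footprints; with at least 10 counts in each library, 180 lower and 49.5% in the lowest quintile. The labels do not pair the replicates, and the replicate differences correlated at 0.334 between 60 and 360 min, -0.371 between 0 and 60 min and -0.0594 between 0 and 360 min. The replicate block gave 524 higher and 346 lower transcripts, 0 past an adjusted p, and 51.3% in the lowest quintile. A replicate block with the 4 compared libraries alone, added after seeing the data, gave 364 past an adjusted p, 638 lower and 64.7% with lower footprints; there, as with no filter, the prior degrees of freedom were infinite, against 6.21 in the fit reported. With the ratio from 0 min replicate 2 alone, also added, 41.2% were in the lowest quintile. Leaving out 1 mRNA replicate (or 1 RPF replicate, for the footprint shares), where the lone library of a time is assumed to vary like the other times, gave 0 transcripts past an adjusted p in each of 4 fits, 291 to 686 higher, 222 to 576 lower (more lower than higher, 472 against 441, without 360 min replicate 2), 32.2% to 62.6% in the lowest quintile, 65.2% to 77.4% of higher mRNAs with higher footprints and 47.4% to 81.0% of lower mRNAs with lower footprints. The last was 47.4% without mRNA 60 min replicate 2. The 4 identifiers kept their direction in every setting that tested them, which their choice favoured, since it required no overlap between the times. Their log2 differences were 3.01 to 3.61 for ENST00000433844, 2.06 to 2.45 for ENST00000245796, -2.99 to -2.32 for ENST00000355765 and -2.49 to -2.07 for ENST00000698141. With all 4 libraries kept, the adjusted p of edgeR's test was lowest in the 4-library replicate block. In the same order it was 1.231e-08, 4.116e-05, 0.00512 and 0.0111 there. It was highest in the replicate block with all mRNA libraries, at 0.415 for each. At the unscaled totals of the 360 min libraries, 3 counts correspond to 6.99 and 5.06 CPM. On the TMM-scaled totals used for CPM here, they correspond to 8.42 and 5.33 CPM.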
